A study of Mus musculus with 17 samples.

Results

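Serotonin acts on nerve cells through a family of receptors that differ in the signal they pass on. Htr2a and Htr2c couple to Gq and raise intracellular calcium through phospholipase C. Htr4 and Htr7 couple to Gs and raise cyclic AMP. Htr1a, Htr1b, Htr1d, Htr1f and Htr5a couple to Gi and lower it, and Htr1a and Htr1b also serve as autoreceptors or terminal receptors on serotonin and other axons. In the cortex Htr2a is best known from pyramidal cells of the middle layers, and Htr2c is known both from neurons and, at very high levels, from the choroid plexus. These 9 receptor genes were taken by their symbols from the 36293 genes listed in the bulk files and the 37608 genes of the nuclei files.

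The genes were followed in mice after chronic unpredictable stress (CUS) and in control mice. The labels give the strain as C57BL/6 and the study's methods as C57Bl/6J, and the study describes males. CUS began at 9 to 10 weeks of age and consisted of 3 changing stressors per day over 12 days, while the control mice were handled and housed apart from the stressed mice. Bulk RNA-seq of nuclei from the medial prefrontal cortex (mPFC) covered 4 control and 5 CUS mice labelled as postnatal day 90, and per the study's methods these mice had also gone through behavioral tests. Single-nucleus sequencing by sNucDrop-seq covered the neocortex of 4 control and 4 CUS mice labelled as postnatal day 80, taken 24 h after the last stressor. The labels name no transgene or deletion in either group. Each mouse is 1 replicate, and fold changes are CUS against control.

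Bulk files held 26188825 to 30525015 reads on genes per mouse. After filtering, 26698 nuclei remained, with 1935 to 4235 nuclei and 4699542 to 12477099 UMIs (counted RNA molecules) per mouse. The nuclei formed 37 clusters, of which 27 held over 200 nuclei and are called classes here. A class carries a type's name with "-like" where its leading genes included markers of the type, and otherwise the names of its 2 leading genes. In each assay 1 library stood apart from its group in markers of other tissue. In bulk, control replicate 4 had 331 CPM (counts scaled to an equal library total) summed over 9 striatal marker genes (all but Pde10a), against 80.0 to 115 CPM in the other control mice and 71.7 to 84.1 CPM in the CUS mice. Of the 9 striatal markers that could be tested in bulk, 8 had log2 fold changes below 0 and did not pass the test, and Pde10a, the gene called, was higher in CUS mice. With Pde10a included, control mice had 683, 802, 1060 and 1182 CPM and CUS mice had 1167 to 1410 CPM. In that sum control replicate 4 (1182 CPM) did not stand apart. Among the nuclei, CUS replicate 2 had 8.84% striatal-like nuclei, against 2.46% to 5.03% in the other CUS mice and 7.38% to 9.95% in the control mice. It also held 5 of the 7 nuclei with 10 or more UMIs of Ttr, the main transcript of the choroid plexus. Of the barcodes kept, 20 occurred in more than 1 mouse.

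In bulk mPFC nuclei, Htr2a rose and Htr2c fell in CUS mice, and the other 7 receptors did not pass the test at a false discovery rate (FDR) of 0.05 with edgeR's quasi-likelihood test. All 9 genes passed the filter on low counts, so 2 of 9 were called, against 3.29% of the 18394 genes tested (1.16% called higher and 2.13% called lower). In bulk tissue, fewer cells of a type and less RNA per cell cannot be told apart. CUS and control mice did not overlap for Htr2a, Htr2c and Htr5a, a separation shown by 8.76% of the tested genes.

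Htr2a encodes the 5-HT2A receptor, the main target of serotonergic hallucinogens in cortex. The gene lies on the plus strand of mm10 chromosome 14, from 74640840 to 74709494. Control mice had 44.2, 38.3, 53.8 and 43.9 CPM, and CUS mice had 60.9, 55.0, 68.1, 59.2 and 61.3 CPM. Every CUS mouse lay above every control mouse, although the lowest CUS mouse (55.0 CPM) and the highest control mouse (53.8 CPM) were close. The mean went from 45.04 ± 6.46 CPM (SD, n = 4) to 60.9 ± 4.74 CPM (SD, n = 5), a 1.35-fold rise. On the log2 scale this was 0.44 ± 0.09 (standard error), with an edgeR FDR of 0.0246. The call was lost without control replicate 2 (log2 fold change 0.37, FDR 0.0699) and without CUS replicate 3, 4 or 5 (log2 fold changes 0.39, 0.45 and 0.43, FDR 0.057, 0.0658 and 0.0682). Without control replicate 3 the log2 fold change was 0.53 (FDR 0.00185), in a fit where 1508 genes were called, against 606 with all mice. The direction held with each mouse left out.

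Htr2c encodes the 5-HT2C receptor. The gene lies on the plus strand of mm10 chromosome X, from 146962513 to 147197277, and hosts 7 microRNA genes and the small nucleolar RNA Snora35 on the same strand, each with a mean of 0.667 to 5.22 reads per mouse against 1227 for Htr2c. Control mice had 46.7, 54.7, 39.5 and 76.5 CPM, and CUS mice had 30.2, 35.5, 34.8, 33.2 and 34.8 CPM. The control mice were spread widely, with replicate 4 far above the rest, while the CUS mice lay close together below all of them. The mean fell from 54.4 ± 16.03 CPM (SD, n = 4) to 33.7 ± 2.12 CPM (SD, n = 5), which is 1.61-fold lower. Its log2 fold change was -0.69 ± 0.15 (standard error), with an edgeR FDR of 0.0271. Without control replicate 4, the library highest in striatal markers other than Pde10a, the log2 fold change was -0.47 and Htr2c was still called (FDR 0.0262). Without control replicate 3 it was -0.82 (FDR 0.00276). The call was lost without control replicate 2 (FDR 0.0792) and without CUS replicate 1, 3, 4 or 5 (FDR 0.0571, 0.0539, 0.0771 and 0.0695), at log2 fold changes of -0.70 to -0.65.

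Markers of the choroid plexus and of striatal cells were examined beside Htr2c. The choroid plexus list summed to 4.85 to 9.18 CPM in control mice and 4.27 to 4.62 CPM in CUS mice, without overlap. Of its 10 genes, 4 were tested and 1 was called, Clic6 (log2 fold change -2.62, FDR 0.0454 from edgeR), with 92 of its reads in control replicate 4 against 9 to 25 in the other control mice. Ttr averaged 0.0363 CPM in control and 0.00711 CPM in CUS mice, so the defining choroid transcript was near 0 in both groups. Striatal markers without Pde10a overlapped between the groups, at 80.0 to 331 CPM in control mice (80.0 to 115 CPM without control replicate 4) and 71.7 to 84.1 CPM in CUS mice. With Pde10a, which was called higher in CUS mice, the sums were 683 to 1182 CPM in control mice and 1167 to 1410 CPM in CUS mice, again overlapping. The part of these cells in the change of Htr2c was not tested beyond the value without control replicate 4.

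Some markers of glia and of neurons were also called in bulk, in both directions. Of 8 astrocyte markers, 7 had log2 fold changes below 0 and 3 were called lower (Gja1, Aqp4 and Slc4a4), and the list summed to 2405 to 2792 CPM in control mice and 2177 to 2529 CPM in CUS mice. All 9 markers of mature oligodendrocytes were below 0 with 1 called (352 to 787 against 369 to 467 CPM), as were all 6 of the Oligo_Enpp6 list with 2 called (163 to 207 against 155 to 181 CPM). Of 7 markers of oligodendrocyte precursors, 6 were below 0 and 2 were called lower (1347 to 1686 against 1397 to 1620 CPM). Of 8 microglia markers, 4 were below 0 and 4 above, with 0 called. Of 5 markers of excitatory neurons, 4 were above 0 and 1 was called higher, Neurod6 (404 to 542 against 515 to 570 CPM). Lists of single excitatory types went both ways. Of 6 layer 4 markers, 5 were below 0 and 1 was called lower, and the same held for 6 claustrum markers. Of 7 layer 6 markers, 6 were below 0 with 0 called (1310 to 1511 against 992 to 1721 CPM). All 4 tested layer 6b markers were below 0 with 0 called. In contrast, 5 of 6 layer 2/3 markers and 5 of 7 layer 5 markers were above 0 with 0 called. All 6 layer 5/6 markers were above 0 with 0 called, and of 6 Ex_Tshz2 markers, 4 were above 0 with 1 called higher. Of 7 Inh_Ndnf markers, 1 was called lower and 1 higher. All 3 markers of GABAergic neurons as a whole were below 0 with 0 called. Above 0 were 4 of 6 Inh_Pv markers, 3 of 6 Inh_Sst markers and 4 of 7 Inh_Vip markers, with 0 called. The sums of each of these lists overlapped between the groups, and their part in the changes of Htr2a and Htr2c was not tested.

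The sequence before the start is shown for Htr2a and Htr2c, the receptors that changed in bulk. It was taken from the RefSeq promoter table of build GRCm38.p6 and is written 5′ to 3′ on the gene's strand. For Htr2c the 250 bases before the RefSeq start are given, chrX:146962263-146962512 (plus strand). For Htr2a the 216 bases that also precede the gene model of the bulk files are given, chr14:74640624-74640839 (plus strand). Capitals mark a match to the AP-1 motif TGANTCA, which is bound by Fos and Jun proteins.
Htr2a: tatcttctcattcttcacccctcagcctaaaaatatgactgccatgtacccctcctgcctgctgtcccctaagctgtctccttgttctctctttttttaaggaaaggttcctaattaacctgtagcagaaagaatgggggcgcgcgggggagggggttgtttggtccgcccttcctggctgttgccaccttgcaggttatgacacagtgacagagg
Htr2c: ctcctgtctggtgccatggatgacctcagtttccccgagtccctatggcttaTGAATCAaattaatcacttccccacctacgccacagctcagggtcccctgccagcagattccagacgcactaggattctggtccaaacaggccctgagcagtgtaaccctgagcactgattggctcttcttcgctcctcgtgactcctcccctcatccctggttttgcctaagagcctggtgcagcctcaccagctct

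Windows of 250 bases before the RefSeq start were searched for 8 of the receptors, 9 entries in all because Htr1d has 2 of them, and 4 motifs were searched on both strands. The AP-1 motif occurred in 1 of these 9 windows, that of Htr2c, where it begins 198 bases before the start. Over all promoters, 6.75% of 32851 windows of this length held it. The motif AANATGGC of Yy1 was in none of the 9 windows and in 3.91% of all, the cyclic AMP response element TGACGTCA was in none and in 1.55% of all, and the TATA box letters TATAAA were in none and in 12.4% of all. A match of letters is a description of the sequence and not a site shown to be bound.

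**Figure D1:**
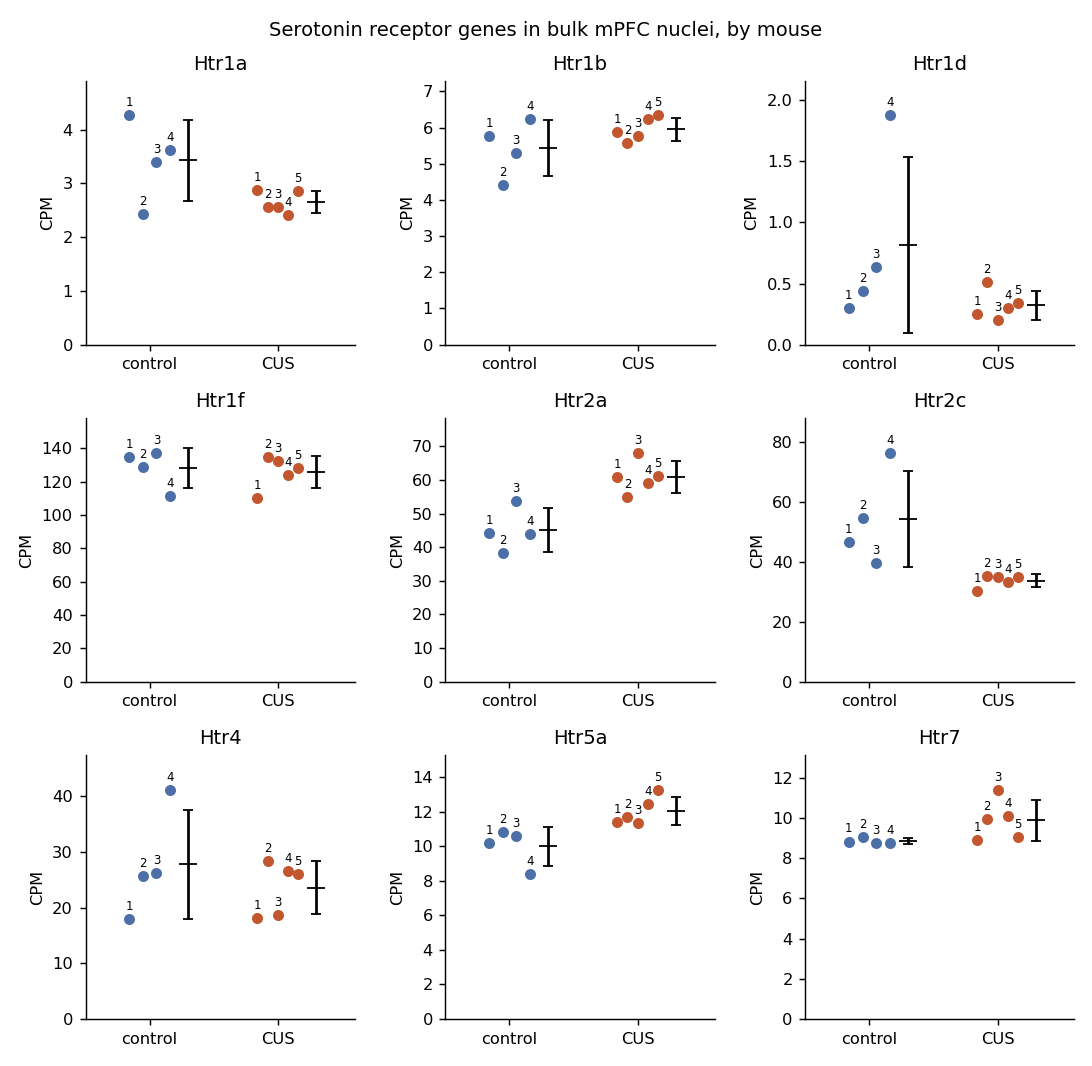
CPM of each receptor gene (vertical axes, each from 0) in bulk mPFC nuclei of 4 control mice (blue) and 5 CUS mice (red). Points are mice, numbered by replicate, and bars give the mean and SD. All CUS mice lie above the control mice for Htr2a and Htr5a and below them for Htr2c, and control replicate 4 is the highest control mouse for Htr1b, Htr1d, Htr2c and Htr4.

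Htr4 and Htr7, the Gs-coupled receptors, did not pass the test in bulk. Htr4 had 18.0, 25.7, 26.2 and 41.2 CPM in control mice and 18.2, 28.4, 18.7, 26.6 and 26.1 CPM in CUS mice. The groups overlapped, with the highest value again in control replicate 4. The log2 fold change of Htr4 was -0.24 ± 0.20 (standard error), with an edgeR FDR of 0.528, and 0.03 without that mouse. Htr7 had 8.74 to 9.07 CPM in control mice and 8.89 to 11.4 CPM in CUS mice, with a log2 fold change of 0.16 (95% interval -0.01 to 0.33, FDR 0.302).

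Among the Gi-coupled receptors, Htr5a came closest to the threshold. Control mice had 10.2, 10.8, 10.6 and 8.39 CPM of Htr5a, and CUS mice had 11.4, 11.7, 11.4, 12.5 and 13.3 CPM. The groups did not overlap, but the log2 fold change of 0.27 (standard error 0.09) had an FDR of 0.106 in edgeR's test. Htr1a, the receptor through which serotonin neurons inhibit their own firing, had 2.43 to 4.27 CPM in control mice and 2.42 to 2.88 CPM in CUS mice, with a log2 fold change of -0.36 ± 0.16 (standard error) at an FDR of 0.195. Htr1d had 0.302, 0.438, 0.635 and 1.87 CPM in control mice and 0.202 to 0.513 CPM in CUS mice. Its log2 fold change was -1.37 (FDR 0.138). Control replicate 4 had 57 reads of Htr1d against 8 to 17 in the other control mice, and without it the log2 fold change was -0.52 (FDR 0.44).

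With all mice, Htr1f and Htr1b differed least. Htr1f, the receptor targeted by a class of migraine drugs, had 111 to 137 CPM in control mice and 110 to 135 CPM in CUS mice. Its log2 fold change was -0.03, with a 95% interval of -0.17 to 0.12 (FDR 0.881 from edgeR). Htr1b, which curbs transmitter release from axon terminals, had 4.42 to 6.25 CPM in control mice and 5.56 to 6.34 CPM in CUS mice, a log2 fold change of 0.13 (interval -0.08 to 0.35, FDR 0.526). The highest control value of Htr1b was in control replicate 4, and without that mouse the log2 fold change was 0.22 (edgeR FDR 0.28). On the opposite strand of Htr1b lies the antisense gene D430036J16Rik (log2 fold change 0.15, FDR 0.476). The library was stranded, but whether the counting used the strand is not given in the sources used here, so reads of Htr1b and this gene may be mixed.

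Genes that work with the receptors were taken from 7 lists. Of the 55 that were tested in bulk, 4 were called (7.27%), all higher in CUS mice, against 3.29% of all genes called and 1.16% called higher. This count was 0 without control replicate 2, 0 without CUS replicate 5, 0 with the replicate number as a block and 14 without control replicate 3, fits in which 0.714%, 0.768%, 1.29% and 8.1% of all genes were called. Of the other serotonin receptor genes, 3 of 5 were tested and 1 was called. This was Htr3a, the subunit of the serotonin-gated ion channel, which rose from 1.50 ± 0.178 CPM in control mice (SD, n = 4) to 2.49 ± 0.210 CPM in CUS mice (SD, n = 5), without overlap. The log2 fold change of Htr3a was 0.73 ± 0.14 (standard error), with an edgeR FDR of 0.0182. Of 12 genes of Gq signalling, which Htr2a and Htr2c use, 2 were called higher. Itpr1, the calcium release channel that responds to inositol trisphosphate, had a log2 fold change of 0.28 (FDR 0.05 after rounding, just under the threshold), and Prkcb, a protein kinase C, of 0.41 (FDR 0.0495).

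Over the 12 genes of Gq signalling, 5 log2 fold changes lay above 0 and 7 below, with a median log2 fold change of -0.02, against 0.006 over all genes tested. Of 9 genes of Gi signalling and GIRK potassium channels, the channel subunit Kcnj9 was called higher (log2 fold change 0.31, standard error 0.06, FDR 0.0162), and 6 of the 9 had log2 fold changes below 0, none of them called. None of the 10 tested genes of Gs signalling and adenylyl cyclases was called by edgeR's test, nor were the 9 of 10 tested genes of serotonin synthesis, transport and breakdown, the 9 tested receptor regulators or the 3 RNA editing enzymes, which include those that edit Htr2c transcripts.

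In the neocortex each receptor had its own distribution over the 27 classes. Clusters were made from these same nuclei, and Htr1f, Htr2a, Htr2c and Htr4 were among the variable genes used to make them, so levels are given as a description. Values are CPM of UMIs summed per mouse, scaled to all UMIs of the class without TMM factors, as mean ± SD over 8 mice. All receptors together were sparse: 58.9% of nuclei had no UMI of any of the 9 genes, 31.3% had UMIs of 1 of them and 7.92% of 2.

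Htr1f was highest in Ex_L6-like nuclei (495 ± 93.8 CPM), Ex_L5-like nuclei (424 ± 69.8 CPM) and Meis2-like nuclei (397 ± 157 CPM), neighbours in the order that did not differ beyond their spread. The Ctgf/Cdh18 cluster (348 ± 69.1 CPM) and the Kcnh5/Rmst cluster (319 ± 41.9 CPM) followed. Ex_L6-like nuclei held 25.1% of all Htr1f UMIs while being 9.52% of nuclei. In contrast, Ex_L2/3-like nuclei had 17.6 CPM of Htr1f. A UMI of Htr1f was found in 54.9% of Ex_L6-like nuclei, against 2.72% of Oligo_Opalin-like nuclei, where none is expected, at median depths of 2033 and 1189 UMIs. After each nucleus was thinned to 1000 UMIs, these shares were 35.9% and 1.64%.

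Htr2a was highest in Claustrum-like nuclei (94.6 ± 39.5 CPM) and in the Kcnh5/Rmst cluster (91.1 ± 13.6 CPM), whose leading genes also include the layer 4 marker Rorb. These levels did not differ beyond their spread. The Ctgf/Cdh18 cluster (60.2 ± 29.0 CPM) and Inh_Ndnf-like nuclei (56.8 ± 27.9 CPM) came next. The Kcnh5/Rmst cluster held 18.1% of Htr2a UMIs in 4.7% of nuclei. Thinned to 1000 UMIs, 8.99% of its nuclei and 7.397% of Claustrum-like nuclei had a UMI of Htr2a, against 0.615% of Oligo_Opalin-like nuclei.

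Htr2c had a different set of classes. Leaving aside the Nefm/Nefl cluster, it was highest in Ex_Tshz2-like nuclei (487 ± 189 CPM), the C130073E24Rik/Hap1 cluster (481 ± 86.7 CPM), the Drd2 group of Striatal-like nuclei (409 ± 66.8 CPM), the Tshz2/Slc17a6 cluster (401 ± 130 CPM) and Inh_Vip-like nuclei (343 ± 83.4 CPM). Neighbours in this order did not differ beyond their spread. Ex_L2/3-like nuclei had 11.4 CPM and the Galnt14/Col6a1 cluster 8.11 CPM of Htr2c. By number of UMIs, the Ndst4/Abi3bp cluster held the most (14.5% of Htr2c UMIs in 5.83% of nuclei). After thinning, 30.5% of the Drd2 group of Striatal-like nuclei had a UMI of Htr2c, against 3.28% of Oligo_Opalin-like nuclei.

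The mean of Htr2c in the Nefm/Nefl cluster (984 ± 2401 CPM) came from 1 mouse, CUS replicate 2, at 6919 CPM, with 0 to 329 CPM in the other 7. This low-depth cluster (220 nuclei with a median of 1014 UMIs) kept no type name. Over all clusters, 7 nuclei had 10 or more Ttr UMIs, and 6 of them held Htr2c, with 14 to 89 UMIs each. Of the 7, 5 had at least 3 other choroid plexus markers. Together they carried 190 of the 7556 Htr2c UMIs (2.51%), but 20.3% of those of CUS replicate 2.

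Htr4 was highest in the Drd1 group (146 ± 32.2 CPM) and the Drd2 group (120 ± 39.1 CPM) of Striatal-like nuclei, followed by the Cpne7/B130024G19Rik cluster (105 ± 38.4 CPM) and Ex_Tshz2-like nuclei (103 ± 44.9 CPM), which did not differ beyond their spread. A small Drd3/Gm45904 cluster of 62 nuclei, too small to be tested, had 705 CPM from 56 UMIs. Htr1b was also led by the Drd2 group (62.3 ± 25.1 CPM) and the Drd1 group (39.9 ± 5.10 CPM) of Striatal-like nuclei, and every other one of the 27 classes had a mean below 10 CPM. Thinned to 1000 UMIs, 5.68% of the Drd2 group had a UMI of Htr1b, against 0.410% of Oligo_Opalin-like nuclei.

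The remaining receptors gave few UMIs. Htr1d (171 UMIs in all) was highest in the Fyb2/Ntng1 cluster (41.98 ± 14.9 CPM), which held 27.5% of its UMIs in 1.16% of nuclei. Htr7 (634 UMIs) was highest in the Tshz2/Slc17a6 cluster (51.9 ± 25.4 CPM), ahead of the C130073E24Rik/Hap1 cluster (25.5 ± 10.3 CPM). Htr1a (323 UMIs) was highest in the Sst group of Inh_Sst-like nuclei (22.1 ± 11.8 CPM), where 1.32% of thinned nuclei had a UMI, close to the 1.05% of Microglia-like nuclei. Htr5a (365 UMIs) stayed at or below 15.3 CPM in every class, so an order of classes could not be read at this depth.

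**Figure D2:**
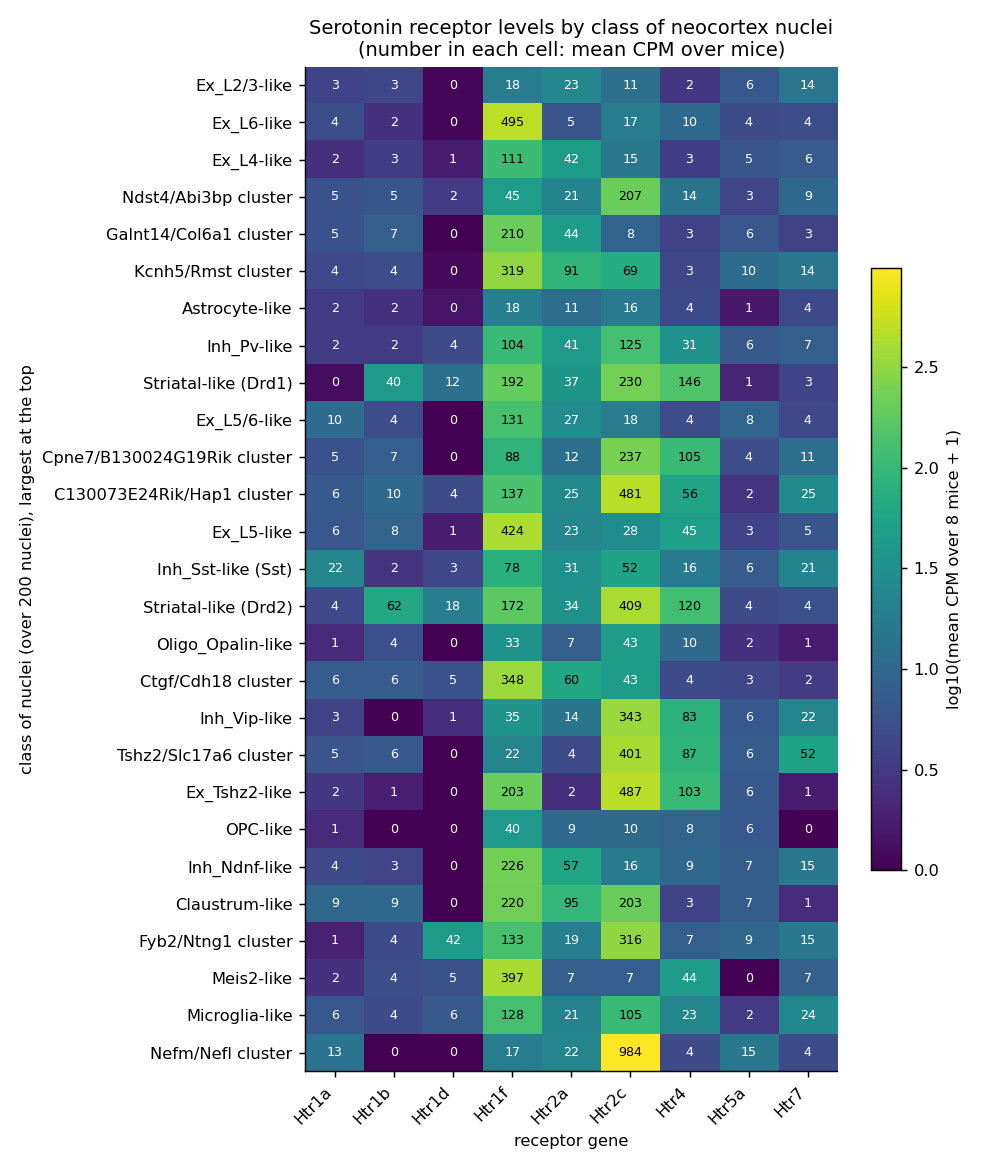
Mean CPM over 8 mice of each receptor gene (columns) in the 27 classes of neocortex nuclei with over 200 nuclei (rows, largest class at the top), coloured on a log10(CPM + 1) scale with the mean CPM printed in each cell. Htr1f reaches 495 CPM in Ex_L6-like nuclei, Htr2c spreads over several excitatory, inhibitory and striatal-like classes, and its 984 CPM in the Nefm/Nefl cluster comes from 1 mouse.

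The genes whose log2(CPM + 1) followed a receptor most closely over the 27 classes were Hs3st5 (r = 0.72), Lin28b (0.71) and Pde4a (0.70) for Htr1f, and Plscr3 (0.71), Nup50 (0.64) and 1700047F07Rik (0.62) for Htr2a. For Htr2c they were Slc8a3 (0.63), Slc27a2 (0.58) and another receptor, Htr4 (0.58). The Nefm/Nefl cluster entered these values, and over the 26 other classes the likest genes for Htr2c were Slc8a3 (0.70), Scn9a (0.69) and Htr4 (0.61), with Slc27a2 at 0.56. For Htr4 they were Nrsn2 (0.79), Rhbdl3 (0.75) and Fam120b (0.74). For Htr7 they were B4galt5 (0.72), Igsf3 (0.70) and Epha6 (0.68), and for Htr1b Gm15813 (0.81), Erlin1 (0.80) and Dgki (0.78). The likest genes for Htr1d were Arhgap18 (0.78), Ccm2 (0.72) and Gtf2ird1 (0.71), for Htr1a Nt5c (0.73), Gpatch1 (0.72) and Mrto4 (0.69), and for Htr5a Sncb (0.81), Hgs (0.80) and Wdr24 (0.80). These r values are Pearson correlations over classes that share mice and libraries, among genes with at least 500 UMIs, and the 3 sparsest receptors had too few UMIs for the likeness to be more than a description. Among the receptors themselves, Htr2a and Htr4 ran opposite over the classes (r = -0.44).

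Pairs of receptors in single nuclei were compared where at least 20 nuclei of a class held both. Of 48 such pairs, the share of nuclei with the second receptor was higher among nuclei with the first in 41 and lower in 7, and in all 48 the nuclei with the first were deeper. Pairs were chosen by the number of nuclei holding both, which favours a higher share. Several pairs also share the same nuclei, so these counts are only a description. In the Kcnh5/Rmst cluster 173 of 1254 nuclei (13.8%) had UMIs of both Htr1f and Htr2a. Of the nuclei with Htr1f, 29.8% also had Htr2a, against 18.1% of those without. The nuclei with Htr1f were deeper, at a median of 3410 against 2128 UMIs, and the part of depth in this difference was not tested. In the Drd2 group of Striatal-like nuclei, 60.9% of nuclei with Htr1f had Htr2c, against 47.2% of those without, at medians of 2255 and 1935 UMIs. In the Drd1 group, in contrast, 16.1% of nuclei with Htr2c had Htr4, against 19.9% of those without, and in the Cpne7/B130024G19Rik cluster these shares were 18.1% and 21.8%.

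The effect of CUS on the receptors was then tested within each class, on UMIs summed per mouse. Genes entered where they had more UMIs than 10% of the class's number of nuclei, and the threshold was an FDR of 0.2. Htr1f could be tested in 20 classes, Htr2c in 17, Htr4 in 8, Htr2a in 7, Htr1b and Htr1d in 1 each, and Htr1a, Htr5a and Htr7 in none. Of these 54 tests, 1 was called, Htr2c in the Nefm/Nefl cluster, against 0.0978% of the 124717 tests of all genes in the 27 classes and 0.235% of the genes of that cluster. In none of the 54 tests did the CUS and control mice separate without overlap, against 3.39% of all the tests in classes. Of the 54, 11 had an unadjusted p under 0.05, against 6.01% of all the tests. The classes share mice and libraries, so the 54 tests are not independent.

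In the Nefm/Nefl cluster most Htr2c UMIs lay in 3 nuclei rich in Ttr. Control mice had 1, 2, 2 and 0 UMIs of Htr2c there, and CUS mice had 29, 43, 2 and 4. The log2 fold change was 4.09 ± 0.69 (standard error), with an edgeR FDR of 4.04e-06, but 67 of the 83 UMIs lay in 3 nuclei with 86, 87 and 123 Ttr UMIs. Without nuclei with 10 or more Ttr UMIs, Htr2c no longer passed the filter in this cluster and no receptor was called in any class. Without CUS replicate 2 the log2 fold change was 1.83 (FDR 0.994), and the call was also lost with DESeq2 (FDR 0.999) and with the replicate number as a block (FDR 0.622). The difference of the CUS effect between this cluster and the Ndst4/Abi3bp cluster was 3.72 on the log2(CPM + 1) scale, and against the C130073E24Rik/Hap1 cluster 3.48, with exact permutation p-values of 0.2 and 0.229 (two-sided, adjusted p = 0.229 for both, 4 mice against 4, smallest possible p 0.0286).

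Of the 17 classes where Htr2c was tested, 13 had log2 fold changes below 0 and 4 above. The classes share mice and libraries, so these signs are not independent, and no class was called lower. After the Nefm/Nefl cluster, the Sst group of Inh_Sst-like nuclei had the smallest p. There, control mice had 104, 81.7, 119 and 10.6 CPM, and CUS mice had 5.26, 21.0, 31.5 and 43.2 CPM. The first 3 control mice lay above all CUS mice, and control replicate 4, with 1 UMI of Htr2c in this class, lay among them. The log2 fold change was -1.69 (standard error 0.41, FDR 0.35 from edgeR's quasi-likelihood test). It passed 0.2 in the likelihood ratio test (FDR 0.0415), with all genes that had any UMI (FDR 0.0474), and without control replicate 4, CUS replicate 2 or CUS replicate 4 (FDR 0.0502, 0.142 and 0.144). It did not pass with DESeq2 (FDR 1), with the replicate number as a block (FDR 0.212), without TMM factors (FDR 0.51), with at least 1000 genes per nucleus (FDR 0.626) or at resolution 1.5 (FDR 0.508). It also did not pass without CUS replicate 1 (log2 fold change -1.38, FDR 1), CUS replicate 3 (FDR 0.662), control replicate 1 (FDR 0.453) or control replicate 2 (FDR 0.491). The CUS effect in this class differed by -1.20 from that in the Ndst4/Abi3bp cluster and by -1.44 from that in the C130073E24Rik/Hap1 cluster on the log2(CPM + 1) scale, with exact permutation p-values of 0.257 and 0.143 (two-sided, adjusted p = 0.257 for both, 4 mice against 4, a comparison chosen after seeing the data).

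Ex_Tshz2-like nuclei had 803, 674, 372 and 616 CPM of Htr2c in control mice and 260, 443, 330 and 397 CPM in CUS mice. The control mice were mostly higher, with replicate 3 among the CUS mice. The difference was -0.75 ± 0.23 (standard error) on the log2 scale and was not called (FDR 0.98). Claustrum-like nuclei had -0.71 (standard error 0.24, FDR 0.5), Microglia-like nuclei -1.61 (standard error 0.57, FDR 0.999) and the Ndst4/Abi3bp cluster -0.38 (standard error 0.18, FDR 0.653). The value of Microglia-like nuclei rests on 54 UMIs over all mice, 0.715% of the Htr2c UMIs, and whether they came from these cells was not tested. In contrast, the C130073E24Rik/Hap1 cluster, which had one of the highest levels of Htr2c, had a log2 fold change of -0.03 (95% interval -0.37 to 0.32), and Inh_Vip-like nuclei had 0.00064 (interval -0.50 to 0.50). The bulk change of Htr2c, from other mice and another dissection, had a 95% interval of -0.98 to -0.41, which overlaps the interval of Inh_Vip-like nuclei and not that of the C130073E24Rik/Hap1 cluster. The difference between the assays was not tested.

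**Figure D3:**
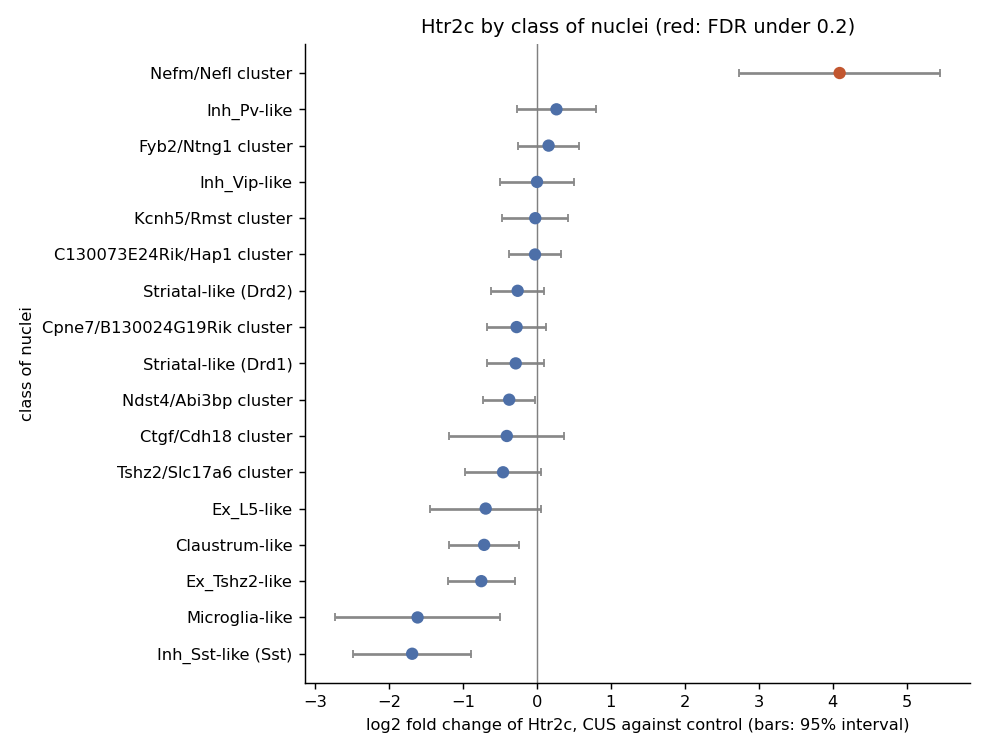
Log2 fold change of Htr2c, CUS against control (horizontal axis, with 95% intervals), in the 17 classes of nuclei where it passed the filter (vertical axis). Values below 0 are seen in 13 classes, and the 1 class past an FDR of 0.2 (red, log2 fold change 4.09) is the Nefm/Nefl cluster that held Ttr-rich nuclei of CUS replicates 1 and 2. All classes come from the same mice and are not independent.

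For the other receptors no class was called by edgeR's test. Htr1f ranged from -0.86 in the Ndst4/Abi3bp cluster (standard error 0.29, unadjusted p = 0.00583, FDR 0.567) to 0.89 in Inh_Ndnf-like nuclei (standard error 0.28, unadjusted p = 0.00204, FDR 0.99), with 4 of 20 classes at an unadjusted p under 0.05. In Ex_L6-like nuclei, where Htr1f is most abundant, the log2 fold change was -0.21 (95% interval -0.53 to 0.12, FDR 0.862). Htr2a ranged from -0.85 in the Ctgf/Cdh18 cluster (FDR 0.916) to 0.14, and in the Kcnh5/Rmst cluster, which held more of its UMIs than any other class, the log2 fold change was 0.06 (95% interval -0.29 to 0.41, FDR 0.969). Htr4 ranged from -0.59 to 0.50 over 8 classes, with 4 below and 4 above 0. Htr1b was tested in the Drd2 group of Striatal-like nuclei (log2 fold change 0.01) and Htr1d in the Fyb2/Ntng1 cluster (0.36).

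With all nuclei of a mouse summed, 2 receptors passed the same filter and neither was called at an FDR of 0.2, against 0.0199% of 5018 genes. CPM of these sums, as in bulk, were scaled to the TMM-adjusted total of the genes that passed the filter. They are therefore not on the scale of the class CPM. Htr2c had 141, 156, 147 and 160 CPM in control mice and 92.3, 170, 106 and 99.4 CPM in CUS mice. CUS replicates 1, 3 and 4 were below all control mice, while CUS replicate 2 was above them all. In CUS replicate 2, 166 of the 817 UMIs of Htr2c lay in 5 nuclei with 10 or more Ttr UMIs. Without such nuclei CUS mice had 88.7, 135, 106 and 99.4 CPM, and all 4 lay below the control mice (141 to 160 CPM), while 4.84% of the 5018 genes separated the groups in these sums and 4.8% with all nuclei. The rule on Ttr was set after seeing the data. It took Htr2c UMIs only from CUS mice, 24 from replicate 1 and 166 from replicate 2, so the separation was favoured by this choice. With all nuclei, the mean was 151 ± 8.35 CPM in control and 117 ± 35.7 CPM in CUS mice (SD, n = 4 each), with a log2 fold change of -0.38 (standard error 0.16, unadjusted p = 0.0369, FDR 0.596 from edgeR). Without CUS replicate 2, the log2 fold change was -0.59 (standard error 0.09) and Htr2c was called (FDR 0.0181), in a fit where 16.7% of genes were called. Without the 7 nuclei with 10 or more Ttr UMIs, and with all mice, it was -0.50 (unadjusted p = 0.00123, FDR 0.588).

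Htr1f had 205, 203, 195 and 208 CPM in control mice and 141, 225, 211 and 190 CPM in CUS mice. The control mice lay close together, and the CUS mice fell on both sides of them. The log2 fold change of Htr1f was -0.08 (95% interval -0.33 to 0.16, FDR 0.831 from edgeR).

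To include the other receptors, all 36464 genes with any UMI were fitted. In this fit Htr4 and Htr2c passed the FDR of 0.2 (0.144 and 0.148), against 0.847% of genes. Its standard error for Htr2c was 0.12, against 0.16 in the fit of 5018 filtered genes. The unadjusted edgeR p of Htr2c was 0.000937 here and 0.0369 there. P-values of the larger fit may therefore understate the spread between mice. Htr4 had 34.5, 41.8, 34.5 and 47.1 CPM in control mice and 25.5, 40.7, 26.4 and 23.9 CPM in CUS mice, again with CUS replicate 2 among the control mice and the other 3 CUS mice below. The log2 fold change of Htr4 was -0.46 (standard error 0.14). Without CUS replicate 2 it was -0.67 (FDR 0.00066) and that of Htr2c -0.64 (FDR 4.87e-05), with 3.66% of genes called. This last fit was chosen after seeing the data and leaves out the CUS mouse with the most of both genes.

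Striatal-like nuclei made up 9.95%, 7.38%, 8.64% and 8.53% of the nuclei of the control mice, by replicate, and 5.03%, 8.84%, 4.21% and 2.46% of those of the CUS mice. This share set CUS replicate 2 apart from the other CUS mice, as Htr2c and Htr4 did. Without striatal-like and claustrum-like nuclei, the log2 fold changes were -0.36 for Htr4 (FDR 0.591) and -0.30 for Htr2c (FDR 0.553), and neither was called, against 0.55% of genes. When CUS replicate 2 was left out as well, they were -0.58 (FDR 0.0237) and -0.54 (FDR 0.00227), with 2.96% of genes called. This combination was chosen after seeing the data, and CUS replicate 2 was the CUS mouse with the most Htr2c and Htr4. A lower level in the remaining 3 CUS mice was thus favoured by the choice. The Drd3/Gm45904 cluster, high in Htr4, stayed in both fits.

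Htr2a, which rose in bulk mPFC nuclei, was not called in the neocortex. It had 33.5, 37.3, 44.5 and 25.1 CPM in control mice and 30.7, 32.2, 39.4 and 38.2 CPM in CUS mice, and the groups overlapped throughout. The means were 35.1 ± 8.09 and 35.1 ± 4.32 CPM (SD, n = 4 each), and the log2 fold change was -0.04 with a 95% interval of -0.31 to 0.23, which lies below the 0.44 measured in bulk. That interval is from the fit of genes with any UMI, which may understate the spread between mice. The assays used different mice and dissections, and the difference between them was not tested. Htr5a had a log2 fold change of 0.16 (interval -0.30 to 0.63), Htr7 of -0.24, Htr1b of -0.17, Htr1a of -0.11 and Htr1d of -0.04, none of them called.

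**Figure D4:**
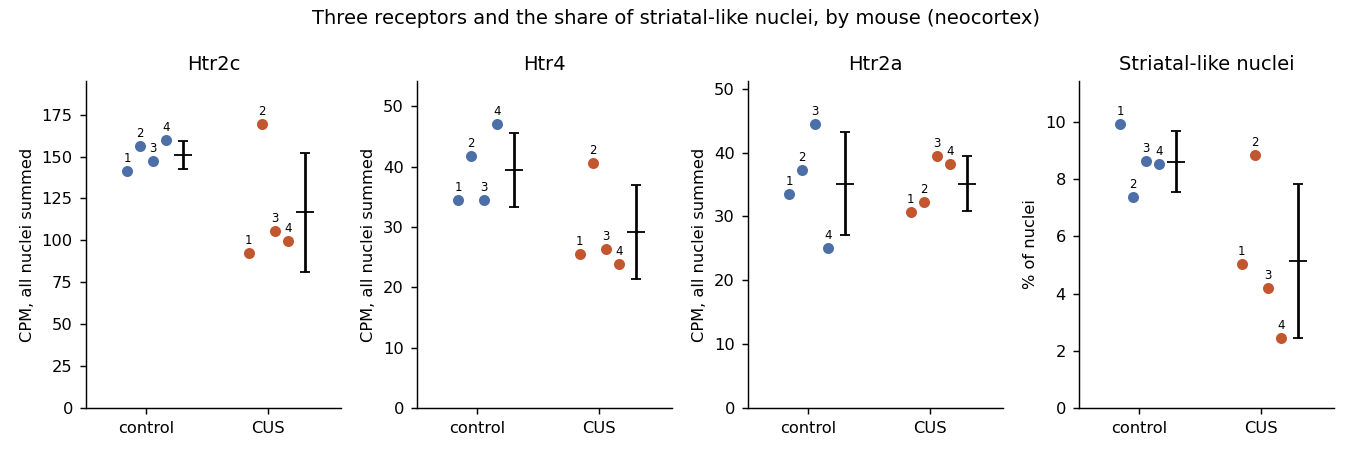
CPM of Htr2c, Htr4 and Htr2a over all neocortex nuclei of each mouse, and the share of striatal-like nuclei (right, in % of nuclei), for 4 control mice (blue) and 4 CUS mice (red), numbered by replicate, with mean and SD. For Htr2c, Htr4 and the striatal-like share, CUS replicate 2 lies among or above the control mice and the other 3 CUS mice lie below them. Without nuclei with 10 or more Ttr UMIs, the Htr2c level of CUS replicate 2 is 135 CPM, below the control mice. This rule was set after seeing the data and took Htr2c UMIs only from CUS mice.

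**Figure D5:**
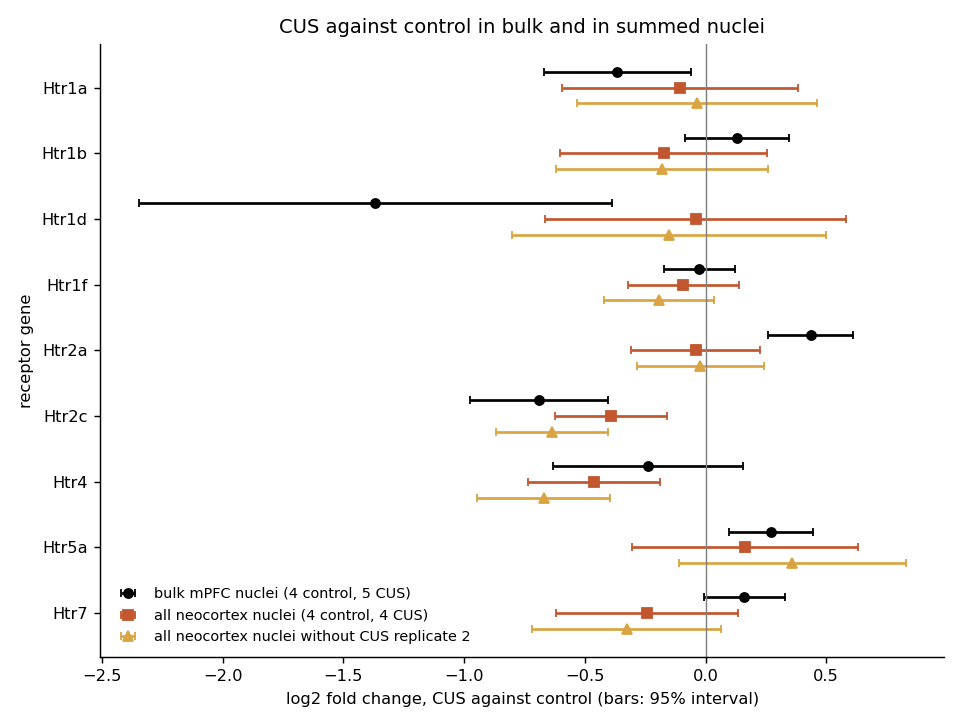
Log2 fold change, CUS against control (horizontal axis, bars give the 95% interval), of the 9 receptors in bulk mPFC nuclei (black), in all neocortex nuclei summed (red) and in the same without CUS replicate 2 (yellow), the latter 2 from the fit of genes with any UMI. Htr2c lies below 0 in all 3, and Htr2a lies above 0 in bulk at 0.44 and near 0 in the neocortex at -0.04. Intervals from the fit of genes with any UMI may understate the spread between mice.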

How the data were processed

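Nuclear RNA was sequenced in bulk from the mPFC of 9 mice and by sNucDrop-seq from the neocortex of 8 mice. Per the labels and the study's methods, the authors deposited raw read counts per gene for bulk (stranded, ribosomal RNA-depleted libraries) and UMI counts per gene and barcode for nuclei. The submitters' processing notes name STAR, edgeR, Seurat and mm10. Per the study's methods, UMIs came from exonic and intronic reads on the annotated strand, and bulk reads mapped to 1 place. Whether bulk counting used strand or introns is not given in the sources used here. The bulk depth was 26188825 to 30525015 reads per mouse, and the nuclei kept had medians of 1804.5 to 2441 UMIs, so low genes carry large counting error.

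Barcodes were kept at 600 to 5000 genes, less than 5% of UMIs from mitochondria and Scrublet scores up to 0.2 (scanpy 1.11.5), 26698 of 40000 barcodes, with 4788 removed as doublets. They were clustered in Seurat 5.3.0 (2000 variable genes, 50 components, 20 neighbours, resolution 1) and named from marker lists. UMIs were summed per mouse and class. edgeR 4.0.16 quasi-likelihood tests with Benjamini-Hochberg adjustment were run over all genes passing the filter, at 0.05 in bulk and 0.2 in nuclei as in the study's methods, in R 4.3.3. Intervals are 1.96 standard errors on either side, which is narrow for groups of 4 or 5 mice. Per the study's methods, the nuclei came in 2 batches that were balanced for stress, a batch effect was seen and a batch term was fitted. The labels do not give the batch of a mouse, so none was fitted here, and the nuclei tests leave batch in the spread between mice. Differences between classes were tested by exact permutation over mice. Alternatives were the likelihood ratio test, DESeq2 1.42.0, other normalization, filters and clustering, and leaving out each mouse. Scripts were tested on simulated data.

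The receptors and lists were chosen with earlier results of these data known. Named genes were every receptor, the called genes of the pathway lists and the 3 genes with the likest pattern over classes, and marker genes were given by list.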

Additional observations from a re-analysis of the deposited data

Results flagged for a closer look

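Among 38 groups of 4 or 5 mice examined for a single distant value, 2 held a mouse farther from the rest than Dixon's 95% limit. Chance gives about 1 in 20, so 2 flags among 38 groups are near the number that chance gives. Both were CUS replicate 2 of the nuclei. Its Htr4 level over all nuclei was 40.7 CPM, against 23.9 to 26.4 CPM in the other CUS mice. Its Htr2c level in the Nefm/Nefl cluster was 6919 CPM, against 61.0 to 329 CPM in the other CUS mice. That cluster was examined because Htr2c was called there, a call lost without CUS replicate 2. The same mouse had 8.84% striatal-like nuclei and 5 of the 7 nuclei with 10 or more Ttr UMIs. Without those nuclei Htr2c no longer passed the filter in that cluster, and the part of the striatal-like nuclei in the Htr4 value was not tested within this mouse.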

How the results depend on the processing

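In bulk, 2 receptors were called in the reported fit, with the likelihood ratio test, with DESeq2, without TMM factors and without a filter on low counts, where 3.29%, 7.23%, 7.43%, 4.47% and 2.59% of all genes were called, and 0 to 2 when each mouse was left out (0.714% to 8.1% of all genes). Of the genes in the pathway lists, 4 were called, against 8 with the likelihood ratio test, 8 with DESeq2, 7 without TMM factors and 0 to 14 when each mouse was left out. In classes of nuclei, 1 of 54 tests of receptors was called (0.0978% of all tests), against 2 of 54 with the likelihood ratio test (0.272%), 2 of 228 with genes of any UMI (0.039%), 0 of 54 with DESeq2 (0.0553%) and 1 to 2 of 47 to 53 when each mouse was left out (0.0377% to 1.29%, the highest without CUS replicate 2). It was 0 of 58 with at least 1000 genes per nucleus (0.083%), 0 of 39 at resolution 0.6 (0.109%) and 0 of 53 without nuclei with 10 or more Ttr UMIs (0.0946%), settings in which Htr2c was not tested in the Nefm/Nefl cluster. Over all nuclei, 0 of 2 receptors were called by edgeR (0.0199% of all genes, 1 receptor at an unadjusted p under 0.05) and 0 of 2 by DESeq2 (0.438%). When each mouse was left out, 0 to 1 were called (0.0% to 16.7% of all genes, the highest without CUS replicate 2). With genes of any UMI, 2 of 9 were called (0.847%), and 2 of 9 without CUS replicate 2 (3.66%). With genes of any UMI and without striatal-like and claustrum-like nuclei, 0 of 9 were called (0.55%). It was 2 of 9 when CUS replicate 2 was left out as well (2.96%). The replicate numbers were not taken as pairs of mice. Same-numbered mice had correlations of deviations of 0.03 to 0.20 in bulk and -0.45 to 0.40 in nuclei, which cannot exclude shared batches. With the replicate number as a block, 2 receptors were called in bulk (1.29% of all genes), 0 pathway genes, 0 in classes (0.298% of all tests) and 0 over all nuclei (0.0199%). When each mouse was left out, the log2 fold change of Htr4 in bulk ranged from -0.403 to 0.0256, above 0 only without control replicate 4. That of Htr1f ranged from -0.078 to 0.0186 in bulk, above 0 without control replicate 3 or CUS replicate 1, and from -0.152 to 0.0435 over all nuclei, above 0 only without CUS replicate 1. Without nuclei with 10 or more Ttr UMIs, the difference of the CUS effect on Htr2c between the Nefm/Nefl cluster and the other 2 clusters was -0.0933 (against Ndst4/Abi3bp) and -0.33 (against C130073E24Rik/Hap1). The causes of the changes with test and tool were not tested. After thinning, 5 of 9 receptors kept the class with the highest share of nuclei with a UMI, and for 6 of 9 the class leading by thinned share was the class leading by CPM. The alternatives without Ttr-rich nuclei, the likeness to Htr2c without the Nefm/Nefl cluster, and those that combine genes of any UMI with leaving out nuclei or CUS replicate 2, were chosen after seeing the data. Htr1a, Htr5a and Htr7 were too sparse in nuclei for a test in any class.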

Other observations

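The small Prox1/Glis3 cluster of 138 nuclei, too small to be tested, had Htr4 at 243 ± 194 CPM (SD over 8 mice) from 72 UMIs, above every tested class. A Chodl group of Inh_Sst-like nuclei (57 nuclei) had 27 UMIs of Htr2c. In Claustrum-like nuclei, 49.6% of nuclei with Htr1f also had Htr2c, against 26.03% of those without, at medians of 3337 and 2411.5 UMIs. In Ndst4/Abi3bp nuclei the corresponding shares were 34.6% and 34.7%, although the nuclei with Htr1f were again deeper, at 3800 against 2534 UMIs.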
